A study of Rattus norvegicus with 12 samples.

Results

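The expression of 9 genes of autophagy and mitophagy was followed in the rat left ventricle: Ulk1, Becn1, Map1lc3b, Sqstm1, Bnip3, Bnip3l, Pink1, Lamp2 and Tfeb. They were taken by symbol from a table of 34700 genes, and each was found once and passed the filter on low counts in each comparison. Left ventricular tissue of 12 male Sprague-Dawley rats was sequenced, with 3 rats in each of 4 groups, and the rats were 8 weeks old at surgery. The Sham rats had the left anterior descending coronary artery threaded but not tied. The HF, HFE and BAIBA rats all carried an infarct from ligation of that artery. The HF group was kept sedentary, as was the Sham group by the supplement. The HFE group had treadmill running for 8 weeks in sessions of 60 min, 5 days per week. The BAIBA group received β-aminoisobutyric acid, a small molecule released by exercising muscle, by oral gavage at 75 mg/kg/day for 8 weeks. By the methods, Sham and HF rats of the BAIBA experiment had an equal volume of water by gavage, and no gavage is stated for exercised rats. Hearts were collected 12 weeks after surgery, and tissue came from the anterior wall of the left ventricle. The methods name the area around the infarct for the BAIBA group, while the results of the study name it for both the HF and BAIBA groups. By the labels and the methods, no exercised or BAIBA-treated rat without an infarct was among the 12. The supplement of the study instead describes BAIBA given to Sham and HF groups, a conflict that could not be settled here, and the labels were followed.

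In macroautophagy a double membrane closes around cytoplasm and fuses with the lysosome, where the content is degraded. A kinase complex (Ulk1) starts the process, a lipid kinase complex (Becn1) marks the membrane, a lipidated ubiquitin-like protein (Map1lc3b) coats it, and a receptor (Sqstm1) brings ubiquitinated cargo to the coat. Mitophagy is the same route used on mitochondria, either through receptors in their outer membrane (Bnip3, Bnip3l) or through the kinase Pink1, and heart muscle, which is dense in mitochondria, depends on it. Much of this route is controlled on the protein, so the RNA levels given here are not a measure of autophagic flux.

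The total count on genes lay between 14812541 and 19732588 per rat. Levels within 1 gene are given as CPM (counts scaled to library size, with trimmed mean of M values, TMM, factors), and levels between genes as the deposited FPKM (fragments scaled to library size and gene length). The summed CPM of 6 cardiomyocyte markers, all detected, was 41695 to 43048 in Sham, 35314 to 36498 in HF, 34998 to 40435 in HFE and 34145 to 42034 in BAIBA. The library HF 1 stood apart in the leukocyte gene Ptprc, at 104 CPM against 16.1 to 46.3 CPM in the other rats. The sum of 6 macrophage and leukocyte markers, Ptprc among them, did not set HF 1 apart. That sum was 176 CPM in HF 1 and 207 CPM in BAIBA 1. BAIBA 1 stood apart in the mesothelial gene Msln, at 36.1 CPM against at most 10.3 CPM. In bulk tissue, fewer cells of a type and less RNA per cell cannot be told apart.

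The 9 genes held the same order of level in all 12 of 12 rats, on the FPKM scale. Pink1 was highest, with 322 to 405 FPKM over the 12 rats and a median of 378 FPKM. Sqstm1 followed at 138 to 206 FPKM, then Bnip3 at 93.8 to 162 FPKM, Map1lc3b at 59.4 to 87.6 FPKM, Lamp2 at 37.99 to 48.3 FPKM, and Bnip3l at 26.5 to 36.2 FPKM. Becn1 lay at 18.4 to 24.3 FPKM, Ulk1 at 14.0 to 20.1 FPKM and Tfeb at 6.98 to 10.7 FPKM. The ranges of neighbours overlapped for Sqstm1 with Bnip3 and for Becn1 with Ulk1, although within each rat the first of each pair was the higher. The other neighbours had ranges that did not overlap. The Pink1 transcript was therefore the most abundant of the 9 per length in each group, and the transcript of the transcription factor Tfeb the least abundant.

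No autophagy or mitophagy gene of the 9 passed an adjusted p of 0.05 in any of the 6 pairwise comparisons, and none in the test for any difference among the 4 groups (edgeR quasi-likelihood test, Benjamini-Hochberg adjustment over all genes tested). DESeq2 also called none of them, while it called 2.26% of all genes among the 4 groups. Its shares of all genes in the pairwise comparisons were not counted. The lowest adjusted p over the 54 gene and comparison pairs was 0.490, and 2 of the 54 had an unadjusted p under 0.05 (edgeR). The background was low as well with edgeR. By adjusted p, 0% of all genes passed for HF against Sham, 0% for HFE against HF, 0% for BAIBA against HF, 0.108% for BAIBA against HFE, 0% for HFE against Sham, 0.0402% for BAIBA against Sham and 0% for any difference among the 4 groups. By unadjusted p, the corresponding shares of all genes were 6%, 7.62%, 5.55%, 9.57%, 11.2%, 7.41% and 9.71%. The edgeR p-values set a difference between groups against the spread between rats, which is estimated with information shared across genes. An exact permutation test of 3 against 3 rats has a smallest two-sided p of 0.1. The size of the differences is described by 95% intervals, each for 1 gene and comparison and not adjusted for the 54 pairs. The 95% interval of the fold change lay within 2-fold in either direction for 54 of 54 pairs, and within 1.5-fold for 48 of 54. The bounds reached furthest for Bnip3, from −0.85 to 0.85 on the log2 scale.

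**Figure D1:**
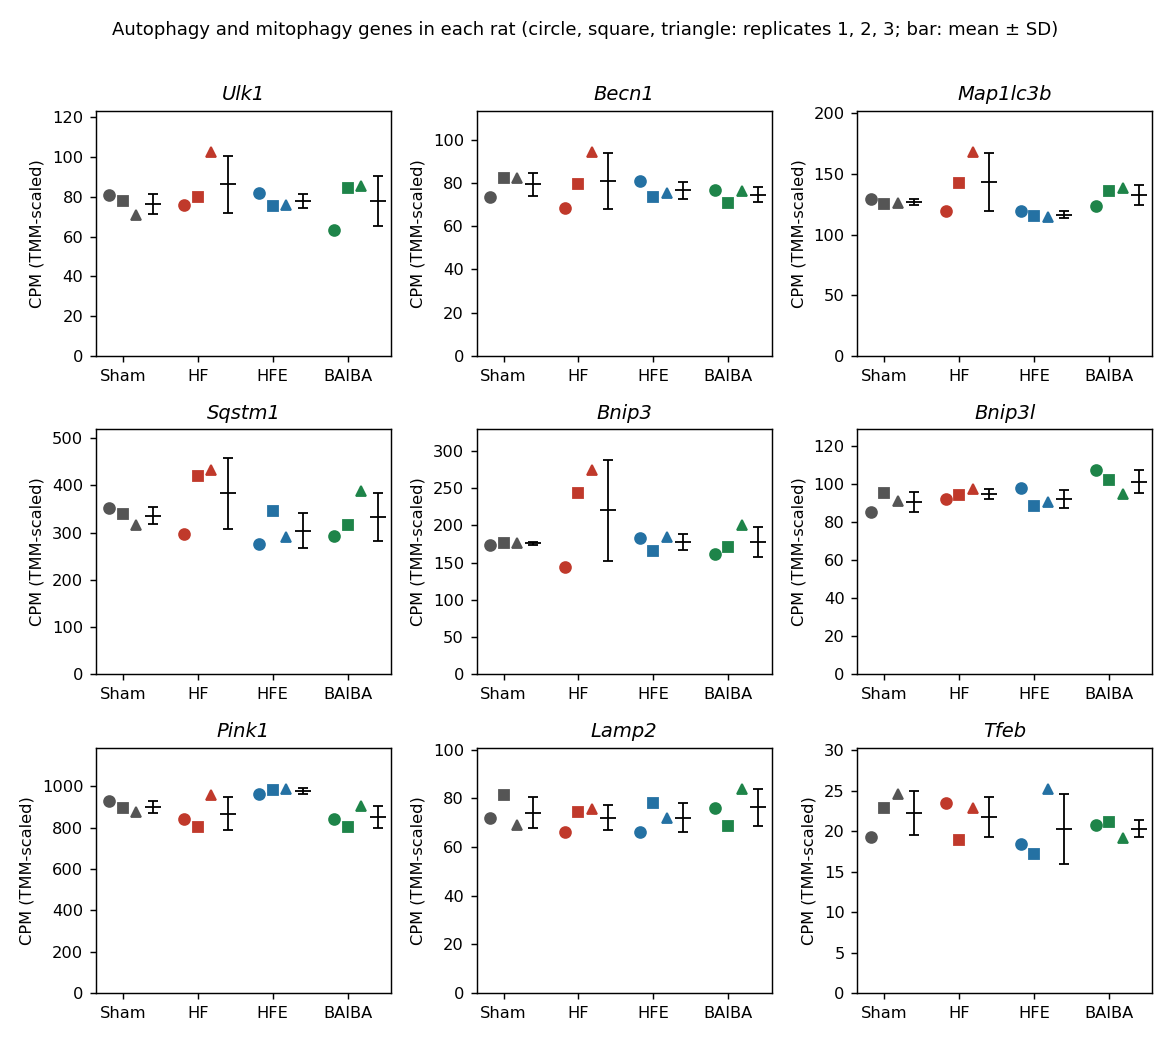
TMM-scaled CPM (y axis, from 0) of each of the 9 genes in each rat of the 4 groups (x axis), with the mean ± SD of 3 rats as a bar beside the points. HF 1 lies below HF 2 and HF 3 for Bnip3 (144 against 243 and 274 CPM), and the 3 HFE rats lie lowest for Map1lc3b and highest for Pink1.

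Ulk1, the kinase that starts autophagosome formation, was at 80.7, 77.8 and 70.9 CPM in Sham and at 76.0, 80.0 and 103 CPM in HF. It was at 81.7, 75.6 and 75.8 CPM in HFE and at 63.5, 84.5 and 85.4 CPM in BAIBA. HF 3 was the highest rat for Ulk1 and BAIBA 1 the lowest, and the groups overlapped in each comparison. Its largest mean difference was HF against Sham, with a log2 fold change of 0.17 (SE 0.13, edgeR adjusted p = 0.851). Becn1, the regulatory subunit of the lipid kinase complex, was at 79.3 ± 5.15 CPM (SD, n = 3) in Sham, 80.8 ± 13.0 CPM in HF, 76.5 ± 4.10 CPM in HFE and 74.6 ± 3.28 CPM in BAIBA. The lowest and the highest rat for Becn1 were both HF rats, HF 1 at 68.4 CPM and HF 3 at 94.4 CPM. The log2 fold changes of Becn1 lay between −0.12 for BAIBA against HF and 0.03 for HF against Sham, each smaller than its standard error. In the RefSeq annotation of GRCr8 the gene Becn1 overlaps Cntd1, so a read in the overlap cannot be given to one of them with certainty.

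Map1lc3b, the ubiquitin-like coat protein of the autophagosome known as LC3B, was at 130, 126 and 126 CPM in the Sham rats and at 120, 142 and 168 CPM in the HF rats. In HFE it was at 119.8, 116 and 114 CPM, and in BAIBA at 123, 136 and 139 CPM. Each HFE rat was below the 9 other rats, although HFE 1 at 119.8 CPM was only just below HF 1 at 119.9 CPM. On the FPKM scale, which uses library size alone, the gap was wider, with 59.4 to 66.0 FPKM in HFE and 68.6 FPKM or more in the other rats. HFE against HF gave a log2 fold change in Map1lc3b of −0.30 (SE 0.12, 95% interval −0.59 to −0.01, edgeR unadjusted p = 0.0438 and adjusted p = 0.648). Without HF 3 this value was −0.17, and without HF 1 it was −0.41. BAIBA against HFE gave 0.19 (SE 0.09, edgeR adjusted p = 0.549) and HFE against Sham −0.12 (SE 0.07, edgeR adjusted p = 0.543). HF against Sham gave 0.17 (SE 0.13), with HF 1 below the Sham rats and the other HF rats above them. A similar locus listed as AABR07026424.1 held 3 to 30 counts per rat, at most 1.56% of the Map1lc3b count, and reads shared between the copies cannot be told apart.

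Sqstm1, which encodes the cargo receptor p62, was at 353, 341 and 316 CPM in Sham and at 297, 421 and 432 CPM in HF. It was at 275, 346 and 291 CPM in HFE and at 293, 317 and 389 CPM in BAIBA. HF 2 and HF 3 were the highest of the 12 rats and HF 1 was below the Sham rats, so that the groups overlapped in each comparison. HFE against HF gave the largest Sqstm1 difference and the largest of the 9 genes over all 6 comparisons, a log2 fold change of −0.34 (SE 0.16, 95% interval −0.71 to 0.04, edgeR adjusted p = 0.660). BAIBA against HF gave −0.21 (SE 0.18) and HF against Sham 0.19 (SE 0.15).

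Bnip3, a receptor in the outer mitochondrial membrane that binds LC3 and is known as a hypoxia target, was at 174, 177 and 176 CPM in Sham and at 144, 243 and 274 CPM in HF. It was at 183, 166 and 185 CPM in HFE and at 161, 171 and 201 CPM in BAIBA. The HF group held both the lowest and the 2 highest rats of the 12, a 1.90-fold range, while the Sham rats differed by 1.02-fold. The log2 fold change was 0.32 (SE 0.22) for HF against Sham, −0.31 (SE 0.22) for HFE against HF and −0.31 (SE 0.23) for BAIBA against HF, with edgeR adjusted p-values of 0.843, 0.737 and 0.862. These 3 comparisons share the HF rats. Without HF 1 the values were 0.56, −0.54 and −0.54, and without HF 3 they were 0.14, −0.13 and −0.12. With HF 1 and BAIBA 1 both left out, BAIBA against HF gave −0.47 for Bnip3 (edgeR adjusted p = 0.488). HFE and BAIBA rats lay close to Sham, at 0.02 on the log2 scale for each against Sham.

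Bnip3l, the related receptor known as NIX, did not share this spread. It was at 90.7 ± 5.17 CPM (SD, n = 3) in Sham, 94.9 ± 2.57 CPM in HF, 92.4 ± 4.85 CPM in HFE and 102 ± 6.27 CPM in BAIBA. Its largest difference was BAIBA against Sham, a log2 fold change of 0.17 (SE 0.09, edgeR adjusted p = 0.757), and the groups overlapped. On the FPKM scale the ratio of Bnip3 to Bnip3l was 3.65 to 4.03 in the Sham rats, 3.69 to 4.03 in HFE and 2.97 to 4.18 in BAIBA. In HF it was 3.09, 5.08 and 5.55, HF 2 and HF 3 being above every rat of the other groups.

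Pink1, the kinase that collects on damaged mitochondria, was at 930, 894 and 874 CPM in Sham and at 842, 805 and 957 CPM in HF. It was at 963, 983 and 988 CPM in HFE and at 841, 805 and 907 CPM in BAIBA. All 3 HFE rats were above the 9 other rats, and this held on the FPKM scale, with 390 to 405 FPKM in HFE and at most 383 FPKM in the others. The difference was small. HFE against HF gave a log2 fold change of 0.17 (SE 0.08, edgeR adjusted p = 0.662), HFE against Sham 0.13 (SE 0.06, edgeR adjusted p = 0.490), and BAIBA against HFE −0.20 (SE 0.08, 95% interval −0.39 to −0.003, edgeR unadjusted p = 0.0470 and adjusted p = 0.511). HF against Sham gave −0.05 (SE 0.10).

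The sequence upstream of the start is shown for Bnip3, which had the widest range over the 12 rats, and for Map1lc3b and Pink1, for which the HFE rats separated from the others, with the known elements that lie there. RefSeq (GRCr8) gave the 250 bases before the start for 7 of the 9 genes, and Bnip3, Pink1 and Map1lc3b are printed 5′ to 3′ on the strand of the gene, with the E-box CACGTG in capitals. Bnip3 is at chr1:203154963-203155212 (minus strand), Pink1 at chr5:155825951-155826200 (minus strand) and Map1lc3b at chr19:66574345-66574594 (plus strand).
Bnip3: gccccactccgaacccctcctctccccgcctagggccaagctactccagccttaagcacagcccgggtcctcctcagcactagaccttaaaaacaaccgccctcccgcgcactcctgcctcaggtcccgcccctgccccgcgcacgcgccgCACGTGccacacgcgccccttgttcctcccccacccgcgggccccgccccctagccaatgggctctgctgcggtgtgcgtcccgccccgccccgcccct
Pink1: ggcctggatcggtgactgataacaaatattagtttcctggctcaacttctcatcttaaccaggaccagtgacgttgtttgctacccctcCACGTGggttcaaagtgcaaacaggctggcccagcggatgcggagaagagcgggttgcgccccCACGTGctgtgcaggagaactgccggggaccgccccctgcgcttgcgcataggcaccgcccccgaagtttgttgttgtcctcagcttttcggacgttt
Map1lc3b: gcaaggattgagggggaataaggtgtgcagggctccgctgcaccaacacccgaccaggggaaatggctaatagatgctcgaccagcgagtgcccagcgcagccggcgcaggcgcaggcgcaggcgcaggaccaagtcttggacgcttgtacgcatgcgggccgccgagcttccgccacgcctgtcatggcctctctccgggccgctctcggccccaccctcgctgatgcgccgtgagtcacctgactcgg

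The E-box was found once in Bnip3, beginning 99 bases before the start, and at 2 places in Pink1, beginning 161 and 98 bases before it. It is its own reverse complement and was in none of the windows of Map1lc3b, Sqstm1, Ulk1, Tfeb or Lamp2, while 5.59% of 33469 rat promoter windows of this length held it. The shorter ACGTG, a form of the core of hypoxia response elements, was searched on both strands and lay within these E-boxes only. Of all windows, 16.6% held it. The other form of that core, GCGTG, was neither searched nor marked. The printed Bnip3 and Map1lc3b windows hold GCGTG on the opposite strand, as CACGC. Neither the FoxO element GTAAACA (3.21% of all windows, both strands) nor the longer CLEAR element of lysosome genes (0.203%, an E-box with fixed flanks) was in any of the 7. A match describes these letters in this window and is no evidence of binding.

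Lamp2, a membrane protein of the lysosome, lay at 66.2 to 83.9 CPM over the 12 rats, and Tfeb, the transcription factor for lysosome genes, at 17.2 to 25.3 CPM. Lamp2 was at 74.1 ± 6.33 CPM (SD, n = 3) in Sham, 72.1 ± 5.09 CPM in HF, 72.1 ± 5.92 CPM in HFE and 76.3 ± 7.59 CPM in BAIBA. Tfeb was at 22.2 ± 2.72 CPM in Sham, 21.7 ± 2.47 CPM in HF, 20.3 ± 4.34 CPM in HFE and 20.3 ± 1.03 CPM in BAIBA. The lowest and the highest rat for Tfeb were both HFE rats. Log2 fold changes lay between −0.04 and 0.08 for Lamp2 and between −0.13 and 0.01 for Tfeb, each smaller than its standard error. Tfeb overlaps a long noncoding RNA gene in GRCr8, with the same limit on its reads as for Becn1.

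**Figure D2:**
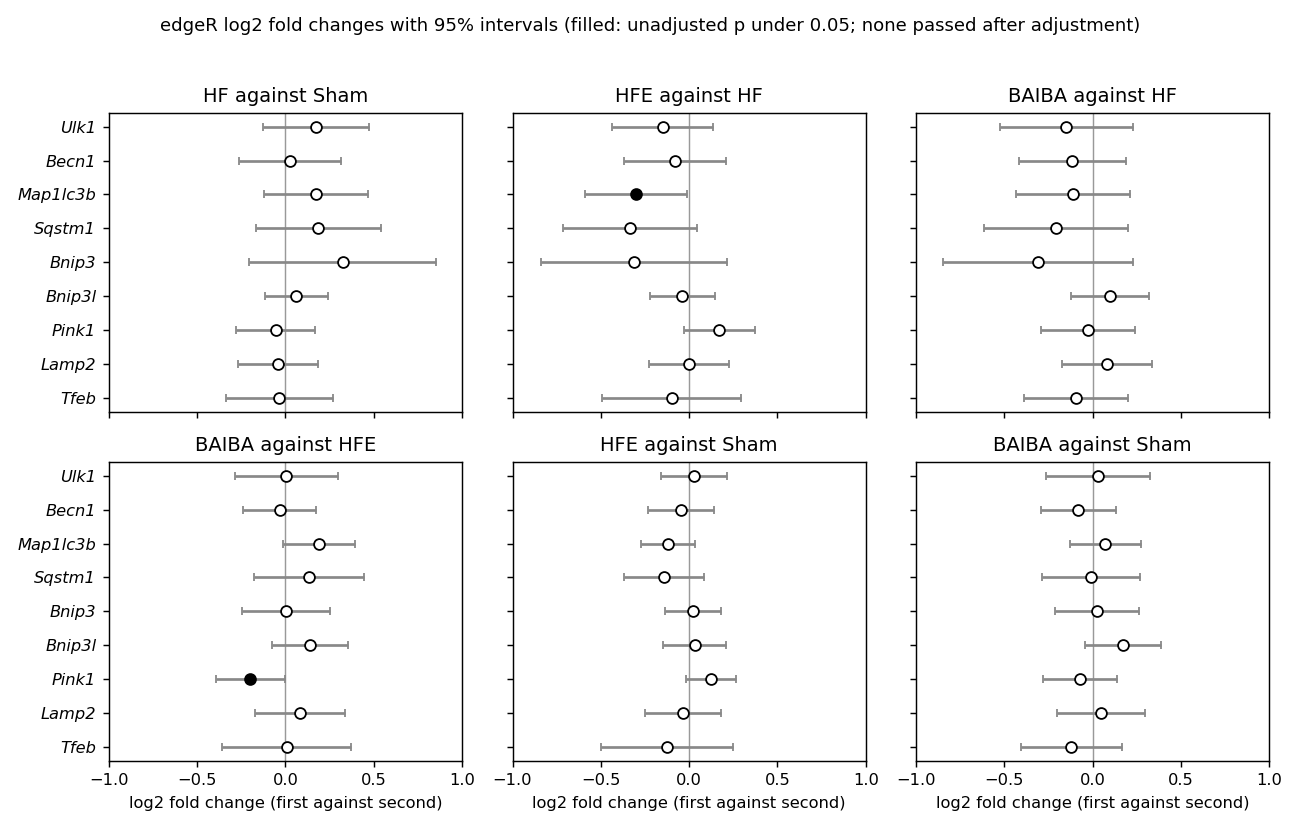
Log2 fold changes (x axis) of the 9 genes (y axis) in the 6 pairwise comparisons, from edgeR, with 95% intervals as bars and filled points for an unadjusted p under 0.05. The filled points are Map1lc3b for HFE against HF (−0.30) and Pink1 for BAIBA against HFE (−0.20), and the widest intervals are those of Bnip3 in the comparisons with HF.

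Among the 9 genes, groups separated only in comparisons with HFE rats, each time for the same 2 genes. With 9 genes, this count cannot be told apart from the share of all genes that separated. For HFE against HF, 2 of the 9 genes did not overlap between the groups, Map1lc3b lower and Pink1 higher, against 14.4% of all genes in either direction. The same 2 genes separated for HFE against Sham, where 17.7% of all genes did, and for BAIBA against HFE, where 15.5% did. These comparisons share the HFE rats. None of the 9 separated for HF against Sham, for BAIBA against HF or for BAIBA against Sham, where 11.8%, 11.4% and 12.7% of all genes did. Taking each group against the 9 other rats together, a count chosen after the values were seen, 2 of the 9 genes lay outside in HFE and none in Sham, HF or BAIBA. Of 15583 genes, 2.4% lay outside in HFE, 1.05% in Sham, 1.21% in HF and 1.66% in BAIBA. The summed CPM of 6 macrophage and leukocyte markers was 111 in HFE 1, 72.0 in HFE 2 and 79.2 in HFE 3. It was 101 to 207 in the other rats, and its part in the values of HFE was not tested.

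For HF against Sham, 6 of the 9 genes were higher and 3 lower, with a median log2 fold change of 0.06, against 0.01 over all genes. Among these differences Bnip3, Sqstm1, Map1lc3b and Ulk1 were the largest, at 0.17 to 0.32. Without HF 3 they were 0.14 for Bnip3, 0.09 for Sqstm1, 0.04 for Map1lc3b and 0.03 for Ulk1, and without HF 1 they were 0.56, 0.34, 0.29 and 0.26. For HFE against HF, 8 were lower and 1 higher, with a median of −0.10, against −0.01 over all genes. For BAIBA against HF, 7 were lower and 2 higher, with a median of −0.11, against −0.01 over all genes. As these comparisons share the HF rats, opposite signs across them are not independent. For BAIBA against HFE 7 genes were higher and 2 lower, with a median of 0.01, against 0.0005 over all genes. Against Sham, 4 were higher and 5 lower in HFE (median −0.03), and 5 higher and 4 lower in BAIBA (median 0.02). The medians over all genes were 0.005 and 0.004. Over the 6 comparisons, 48.1% to 51.9% of all genes were higher.

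For most of the 9 genes, rats of the HF group differed most from each other. The range between the highest and lowest rat was widest in HF for 6 of the 9 genes, in BAIBA for 2, in HFE for 1 and in Sham for none, while over 15583 genes HF was widest for 29.7% and BAIBA for 32.3%. The 6 were Map1lc3b, Sqstm1, Becn1, Ulk1, Bnip3 and Pink1. The median range of the 9 genes was 1.35-fold in HF, 1.12-fold in Sham, 1.11-fold in HFE and 1.13-fold in BAIBA, against 1.33-fold, 1.27-fold, 1.28-fold and 1.35-fold over all genes. The median was thus near that of all genes in HF and below it in the other 3 groups. HF 1 was the lowest of the 3 HF rats for Map1lc3b, Sqstm1, Becn1, Ulk1 and Bnip3, and HF 3 the highest. In the same rats, HF 1, HF 2 and HF 3, the summed atrial myocyte markers were at 69.9, 457 and 538 CPM, the summed erythroid markers at 395, 771 and 955 CPM and the summed fibroblast and scar markers at 1094, 1386 and 1599 CPM, in the same order as Bnip3. The summed macrophage and leukocyte markers were at 176, 101 and 146 CPM, highest in HF 1, where Ptprc made up most of the sum. The summed endothelial, adipocyte, cardiomyocyte and epicardial markers were highest in HF 2 and did not follow the order of Bnip3 either. The part of any of these sums in the values was not tested.

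Over the 12 rats, the levels of Map1lc3b, Sqstm1 and Bnip3 went together. Of 36 gene pairs, 4 passed by Pearson's r after Benjamini-Hochberg adjustment over the 36 (two-sided test with 100000 permutations), and none passed by Spearman's rho. Map1lc3b and Bnip3 had r = 0.818 (permutation p = 0.00194, adjusted 0.0296) and rho = 0.497 (permutation p = 0.104, adjusted 0.498). Map1lc3b and Sqstm1 had r = 0.804 (permutation p = 0.00086, adjusted 0.0296) and rho = 0.790 (permutation p = 0.00339, adjusted 0.122). Sqstm1 and Bnip3 had r = 0.783 (permutation p = 0.00247, adjusted 0.0296) and rho = 0.462 (permutation p = 0.134, adjusted 0.535). Becn1 and Bnip3 had r = 0.765 (permutation p = 0.00441, adjusted 0.0397) and rho = 0.629 (permutation p = 0.0322, adjusted 0.389).

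These relations were weaker without the HF rats, least so for Map1lc3b and Sqstm1. Leaving out rats far from the median narrows the range, which tends to lower r in itself. The 2 rats farthest from the median of the first gene of a pair were left out. Without HF 2 and HF 3, r fell to 0.365 for Map1lc3b and Bnip3, 0.5846 for Map1lc3b and Sqstm1 and 0.381 for Sqstm1 and Bnip3. Becn1 and Bnip3 were at 0.308 without HF 1 and HF 3. Over the 9 rats of the Sham, HFE and BAIBA groups, r was 0.315, 0.563, 0.308 and 0.236 for the 4 pairs. With group means subtracted, r was 0.902, 0.730, 0.766 and 0.800, and this measure keeps the wide spread of the HF rats. No pair passed with library-size CPM or with log2(FPKM + 1), where r was 0.753 to 0.754 for Map1lc3b and Bnip3.

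**Figure D3:**
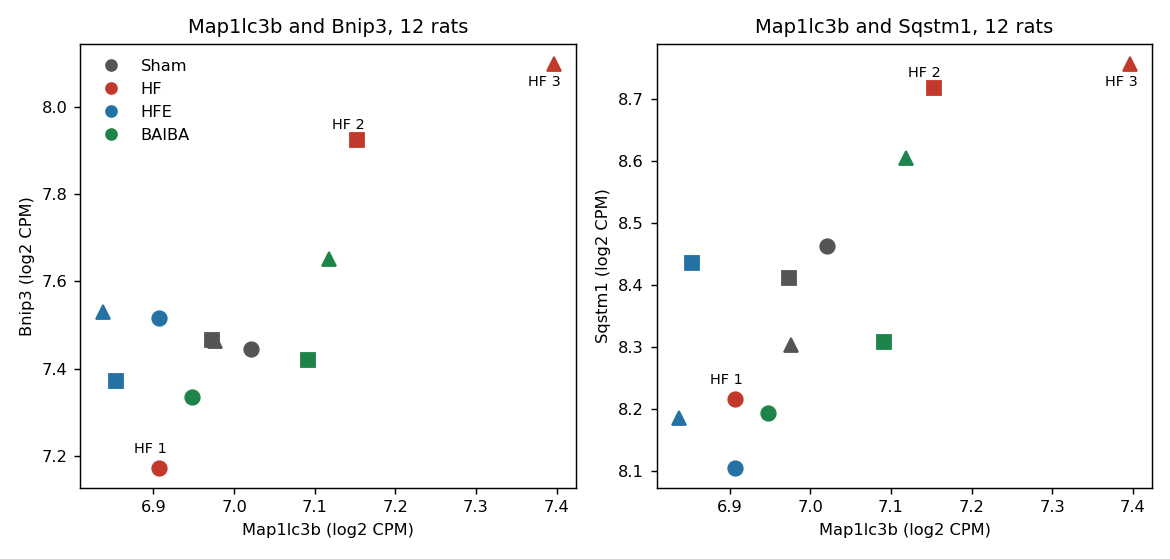
Log2 CPM of Map1lc3b (x axis) against Bnip3 (left) and Sqstm1 (right) in the 12 rats, coloured by group, with circles, squares and triangles for replicates 1, 2 and 3 of a group. HF 2 and HF 3 lie at the upper right, and without them r is 0.365 for Bnip3 and 0.5846 for Sqstm1.

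A list of 61 further autophagy genes was set beside the 9, from the initiation complex to the lysosome, of which 58 were tested. Atg4a was not found in the table, and Calcoco1 was below the filter. None of the 58 passed an adjusted p of 0.05 in any pairwise comparison or among the 4 groups (edgeR). By unadjusted p, 9 passed for HFE against HF (15.5%), 10 for HFE against Sham (17.2%), 3 for BAIBA against HFE (5.17%), 2 for HF against Sham (3.45%), 1 for BAIBA against Sham (1.72%) and 0 for BAIBA against HF. The shares of all genes were 7.62%, 11.2%, 9.57%, 6%, 7.41% and 5.55%. Among the 4 groups 7 of the 58 had an unadjusted p under 0.05 (12.1%, against 9.71% of all genes), led by Optn, Ctsl and Gabarapl1, with edgeR adjusted p-values of 0.395, 0.421 and 0.448. DESeq2 called 1 of the 58 among the 4 groups, Optn with an adjusted p of 0.0192, against 2.26% of all genes by the same test.

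For HFE against HF, 33 of the 58 genes were lower and 25 higher, and the lowest adjusted p was 0.627 (edgeR). Of the 9 genes with an unadjusted p under 0.05, 8 were lower and 1 higher. Gabarapl1, an LC3-family coat protein, was at 79.1 CPM in HFE 1, 75.03 CPM in HFE 2 and 74.97 CPM in HFE 3, and at 81.4, 111 and 112 CPM in HF, a log2 fold change of −0.41 (SE 0.13, edgeR adjusted p = 0.627). Atg7, the enzyme that activates these coat proteins, was at 5.94 ± 0.258 CPM (SD, n = 3) in HFE and 8.20 ± 0.508 CPM in HF, a log2 fold change of −0.47 (SE 0.15). Foxo3, a transcription factor with autophagy genes among its targets, had the largest difference of the list at −0.81 (SE 0.24). Atg13 of the initiation complex gave −0.46 (SE 0.15), the fusion genes Snap29 −0.29 (SE 0.09) and Epg5 −0.42 (SE 0.17), the lysosomal protease Ctsl −0.26 (SE 0.10) and the kinase Mtor −0.22 (SE 0.09). Atg10, a conjugating enzyme, was the gene counted as higher, at 0.34 (SE 0.13), and Atg4d came next at 0.20 (SE 0.09, unadjusted p = 0.0526).

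By role, the sign for HFE against HF was negative, whatever the size of the difference, for 6 of 7 genes of the lipid kinase complex and its regulators, 5 of 7 of membrane supply, 7 of 12 of fusion and lysosome, 5 of 9 of cargo and mitophagy receptors, 4 of 6 upstream regulators, 2 of 4 of initiation and 4 of 13 of the coat proteins and their conjugation. Of all genes, 48.3% were higher in this comparison. Of the 58 further genes, 4 were lower in the 3 HFE rats than in the 9 others, as was Map1lc3b. They were Gabarapl1, Atg7, Ctsl and Snap29, and no gene of the list was higher in this way. Of 15583 genes, 2.4% had the HFE rats outside the 9 others in either direction. On the FPKM scale the separation held for Gabarapl1, Atg7 and Ctsl but not for Snap29. Ctsl is also abundant in macrophages, whose summed markers were 72.0 to 111 CPM in HFE and 101 to 207 CPM in the other rats, and that part was not tested.

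**Figure D4:**
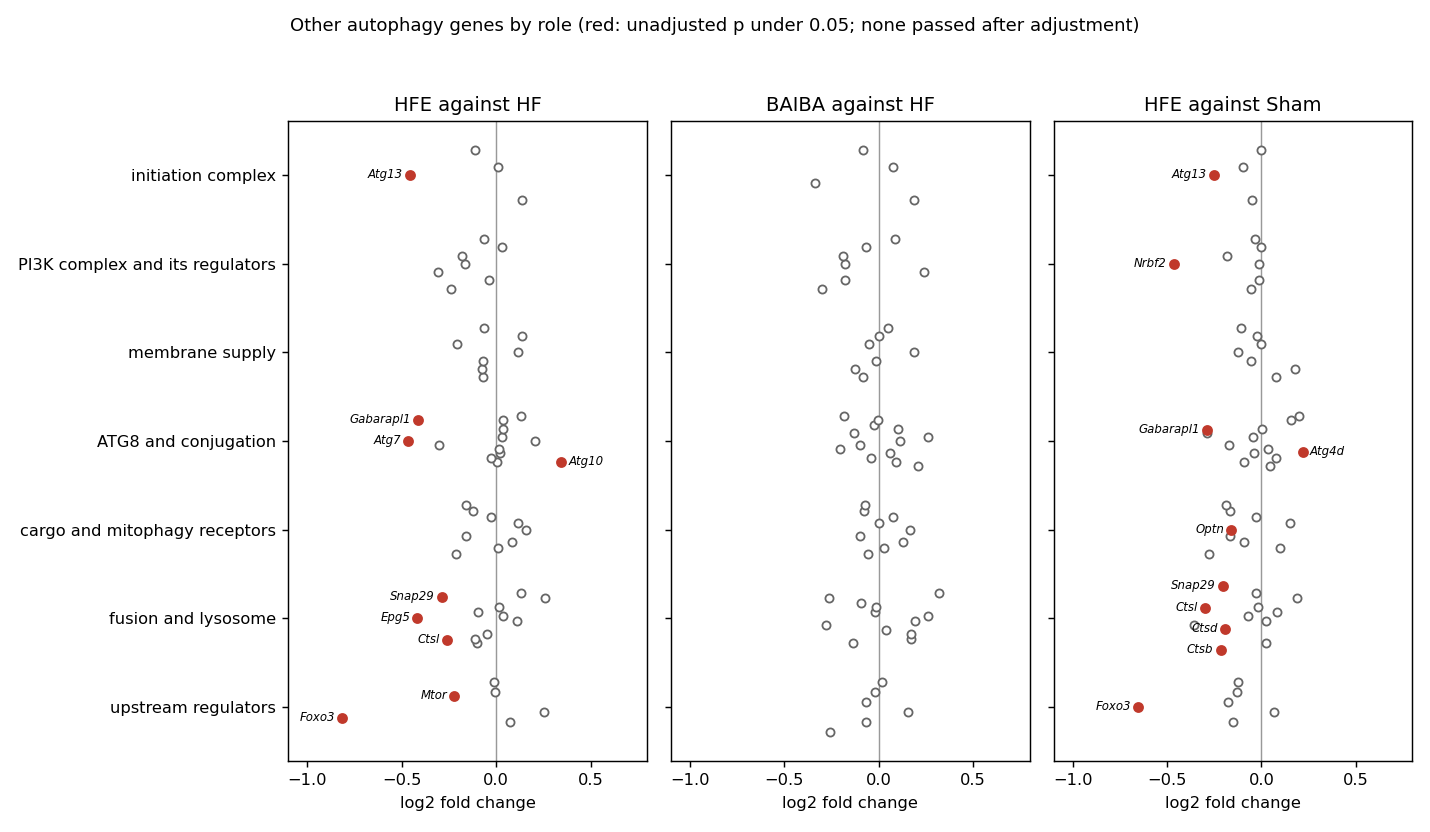
Log2 fold changes (x axis) of the 58 further autophagy genes, grouped by role (y axis), for HFE against HF, BAIBA against HF and HFE against Sham, from edgeR, with red points and names for an unadjusted p under 0.05. There are 9 red points for HFE against HF, 0 for BAIBA against HF and 10 for HFE against Sham.

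The comparisons of HFE with Sham and with BAIBA share the HFE rats with HFE against HF. By unadjusted p, 10 of the 58 genes (17.2%, against 11.2% of all genes) were counted for the first and 3 (5.17%, against 9.57% of all genes) for the second. For HFE against Sham, Ctsl was at −0.30 (SE 0.07, edgeR adjusted p = 0.263) and Gabarapl1 at −0.29 (SE 0.08, edgeR adjusted p = 0.298) on the log2 scale. The other genes lower at an unadjusted p under 0.05 were Atg13, Ctsd, Foxo3, Snap29, Ctsb, Nrbf2 and Optn, at −0.65 to −0.16, and Atg4d was higher at 0.22. Map1lc3a, the close relative of Map1lc3b, was higher at 0.20 (SE 0.09, unadjusted p = 0.0531). For BAIBA against HFE, Gabarapl1 was higher at 0.39 (SE 0.10, edgeR adjusted p = 0.233), with 94.6, 94.3 and 111 CPM in BAIBA. Ctsl was higher at 0.30 (SE 0.09) and Nrbf2 at 0.55 (SE 0.20). Map1lc3a at −0.31 (SE 0.16) and Stx17 at −0.52 (SE 0.30) had the lowest p among lower genes.

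For HF against Sham, none of the 58 genes passed, and the lowest adjusted p was 0.805 (edgeR). Of the 58, 1 gene separated as higher and 4 as lower in HF, against 11.8% of all genes in either direction. Optn, a ubiquitin-binding mitophagy receptor, was at 261, 243 and 240 CPM in Sham and at 191, 210 and 193 CPM in HF, with no overlap. Its log2 fold change for HF against Sham was −0.33 (SE 0.09, edgeR unadjusted p = 0.00636 and adjusted p = 0.805). Its values were 224, 219 and 221 CPM in HFE and 224, 235 and 209 CPM in BAIBA, so the Sham rats were above all rats with an infarct. Of 15583 genes, 1.05% had the Sham rats outside the 9 others in either direction. Fkbp8 of the list lay just below the others in Sham, at 81.5 to 84.6 CPM against 84.7 CPM or more, but not on the FPKM scale. Vmp1, which supplies membrane, was at −0.25 (SE 0.09), while Atg2b at 0.24 (SE 0.15) and Wdr45 at 0.20 (SE 0.13) had the lowest p among higher genes. For BAIBA against HF the genes with the lowest p were Lamp1 at 0.19 (SE 0.11) and Atg5 at 0.26 (SE 0.16) among the higher, and Ambra1 at −0.30 (SE 0.13) and Atg13 at −0.34 (SE 0.17) among the lower. For BAIBA against Sham, Hif1a was at −0.29 (SE 0.11, edgeR adjusted p = 0.635) and Optn at −0.15 (SE 0.09), and Wdr45 at 0.15 (SE 0.09) and Fkbp8 at 0.12 (SE 0.08) led the higher genes.

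Among 11702 genes with a symbol and a mean of at least 1 CPM, those most like each of the 9 over the 12 rats were found by Pearson's r of log2 CPM, as a description that rests on the same libraries. Map1lc3b was most like Dnajc10 (r = 0.920) and Pdk4 (r = 0.901), Bnip3 most like Fam49a (r = 0.921), and Sqstm1 most like Fbxo30 (r = 0.874) and Trim25 (r = 0.870). Pink1 was most like Bsg (r = 0.876) and Kcnj12 (r = 0.874), Bnip3l like Cd9 (r = 0.887) and Bend6 (r = 0.874), and Lamp2 like Echs1 (r = 0.862) and Faf1 (r = 0.838). Becn1 was most like Pdlim5 (r = 0.887) and Oat (r = 0.873), Ulk1 like Tmem94 (r = 0.888) and Gpi (r = 0.878), and Tfeb like Ampd2 (r = 0.865) and Bop1 (r = 0.861).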

How the data were processed

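Left ventricular RNA of 12 rats was sequenced as paired-end libraries from oligo(dT)-selected mRNA. The authors used HISAT2 for alignment and StringTie to assemble further genes, and counted reads per gene with featureCounts. The deposited counts were whole numbers without normalization, and the deposited FPKM values were made by the authors from counts and gene length. The submitters' processing notes name the build mm9, although the gene identifiers are those of rat, and whether the counting used strand is not given in the sources used here. No column of values was left without a sample. Columns with the authors' own comparisons were not used.

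Each pair of groups was fitted with edgeR 4.0.16 in R 4.3.3 (TMM, filterByExpr, robust quasi-likelihood, no covariate), and p-values were adjusted over all genes tested. A gene was called at an adjusted p under 0.05, with no limit on the fold change. Each standard error was taken from the log2 fold change and its F statistic, as their ratio after a square root of F. Single genes were also compared by an exact permutation test over the 20 assignments of 6 rats. The procedure was tested on simulated counts. Alternatives were DESeq2 1.42.0, other normalizations and filters, a fit of all 12 rats, the replicate block, each rat left out, a limit of 1 on the absolute log2 fold change, and limma 3.58.1 on log2(FPKM + 1) and log2(FPKM + 0.1). The 9 genes, the further list and the markers were chosen with earlier results of these data known. All 9 genes are named. From the further list, every called gene was to be named or, with none, the 2 with the lowest p in each direction. Others under an unadjusted p of 0.05 were named after their values were seen. For each of the 9, the 2 genes with the highest r are named, except 1 for Bnip3. That gene and 1 gene of the further list are not reported here.

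Same-numbered rats are different animals. Their deviations from the group means correlated above 0.1 in every pair for BAIBA against HFE only (0.118 to 0.224), where the values are also from the fit without the block and the blocked fit is an alternative.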

Additional observations from a re-analysis of the deposited data

How the results depend on the processing

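No one of the 9 genes was called in any refit, and the lowest adjusted p over 819 refits of the 54 log2 fold changes was 0.129. In 759 refits the direction was kept and in 60 it turned, 43 of them with a rat left out, and each of the 20 log2 fold changes that turned had a size of 0.116 or less. Of 236 refits of the counts of called genes, 235 gave 0, and DESeq2 gave 1 for the further list among the 4 groups (Optn). The number of correlated pairs moved from 4 to 0 with log2(FPKM + 1) and to 0 with library-size CPM, where r of these 4 pairs was 0.648 to 0.760, and was 6 with group means subtracted.

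With limma on log2(FPKM + 1), HF against Sham gave −0.00189 for Becn1, BAIBA against HFE gave 0.0205 for Becn1, HFE against Sham gave −0.0275 for Ulk1, −0.0379 for Bnip3 and −0.0255 for Bnip3l. With limma on log2(FPKM + 0.1), HF against Sham gave −0.00209 for Becn1, BAIBA against HFE gave 0.0214 for Becn1, HFE against Sham gave −0.0291 for Ulk1, −0.0382 for Bnip3 and −0.0263 for Bnip3l. Without a filter, HFE against HF gave 0.00318 for Lamp2. With library size only, BAIBA against HFE gave 0.0231 for Becn1, HFE against Sham gave −0.0279 for Ulk1, −0.0352 for Bnip3 and −0.0252 for Bnip3l. With the replicate block, BAIBA against HFE gave −0.00643 for Ulk1 and −0.00192 for Bnip3. The block changed no call, and gave −0.200 for Pink1 in the same comparison (edgeR adjusted p = 0.398).

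With 1 rat left out, HF against Sham ranged from −0.0996 to 0.134 for Becn1, −0.121 to 0.055 for Tfeb and −0.0803 to 0.0286 for Lamp2. HFE against HF ranged from −0.185 to 0.0439 for Becn1 and −0.067 to 0.0589 for Lamp2. BAIBA against HF ranged from −0.222 to 0.0185 for Map1lc3b, −0.218 to 0.0117 for Becn1 and −0.0832 to 0.0466 for Pink1. BAIBA against HFE ranged from −0.0636 to 0.00969 for Becn1, −0.0643 to 0.126 for Ulk1, −0.0981 to 0.191 for Tfeb and −0.0899 to 0.062 for Bnip3. HFE against Sham ranged from −0.0209 to 0.0632 for Ulk1, −0.104 to 0.0282 for Lamp2, −0.00154 to 0.0625 for Bnip3 and −0.0155 to 0.0638 for Bnip3l. BAIBA against Sham ranged from −0.146 to 0.0722 for Sqstm1, −0.0501 to 0.156 for Ulk1, −0.0347 to 0.116 for Lamp2 and −0.0821 to 0.0853 for Bnip3. For HFE against HF, Map1lc3b ranged from −0.414 to −0.174.

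With 3 rats in a group, standard errors of the 9 genes were 0.06 to 0.23 on the log2 scale. Differences larger than their standard error could also go uncalled. An example was Map1lc3b for HFE against HF, at −0.30 (SE 0.12, edgeR adjusted p = 0.648). Leaving out HF 1 and BAIBA 1 was chosen after the data were seen, as was the range over 9 rats without HF.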
